A study of Rattus norvegicus with 6 samples.

Results

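The genes described here make, take up, degrade or sense γ-aminobutyric acid (GABA), the main inhibitory transmitter of the brain. They were the rows of the deposited table whose symbol was Gad1, Gad2, Slc6a11, Slc6a13, Abat, Aldh5a1, Gabbr1 or Gabbr2, chosen by name and function, and all 8 were found among the 22608 genes of the table. Rat primary astrocytes given the ketone body β-hydroxybutyrate (BHB), a fuel that the liver releases in fasting, were compared with control astrocytes, with 3 poly(A) RNA-seq libraries in each group. The labels do not say what the controls were given. The column names give the BHB dose as 2 mM, while the sources used here give no treatment time, rat strain or age. Nothing in the labels ties the 3 libraries of a group to separate cultures or rats, so the p-values cover the spread among these libraries only, and part of it may be technical.

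GABA is made from glutamate by the glutamate decarboxylases GAD67 (Gad1) and GAD65 (Gad2), which in the brain are best known from inhibitory neurons. It is cleared from the extracellular space by sodium- and chloride-coupled transporters of the SLC6 family, of which GAT3 (Slc6a11) is known from astrocytes and GAT2 (Slc6a13) from the brain coverings. In mitochondria GABA transaminase (Abat) turns GABA into succinic semialdehyde, and succinic semialdehyde dehydrogenase (Aldh5a1) oxidises that to succinate, which enters the tricarboxylic acid cycle. The metabotropic GABA-B receptor is a heterodimer in which GABBR1 binds GABA and GABBR2 couples to inhibitory G proteins and carries GABBR1 to the cell surface. Ketone bodies have been studied for their effect on the balance of glutamate and GABA in the brain, which is the background to reading these genes in astrocytes.

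The unit throughout is FPKM, fragments scaled by transcript length and by the mapped fragments of the library. Levels are thus per length and can be set side by side between genes, although how transcripts of a gene were combined is not stated. Summed FPKM per library ran from 361730 to 367448 with BHB and from 354565 to 365566 in controls, and between 12288 and 12312 genes reached 1 FPKM. The number of reads is unknown. The most frequent ratio to control 1 among genes under 0.1 FPKM lay between 0.851 (control 3) and 1.01 (BHB 2) in the other libraries. The depths inferred from it were thus similar but not equal. All 10 astrocyte markers examined were expressed above the minimum, led by the fatty acid binding protein gene Fabp7 at 2304 ± 25.7 FPKM with BHB and 2319 ± 90.2 FPKM in controls (SD, n = 3 each). Of these 10, 1 passed the test described below: Slc1a3, the glutamate transporter GLAST, was higher at 455.2 ± 11.6 FPKM with BHB, against 202.7 ± 5.0 FPKM in controls (SD, n = 3 each; log2 difference 1.16, limma adjusted p = 1.64e-05). Genes listed as markers of other cells were present too, and those given next are the most abundant of their lists. The mural cell gene Tagln stood at 3104 ± 109 FPKM with BHB and 3030 ± 142 FPKM in controls, and the collagen gene Col1a2 at 266.2 ± 15.7 FPKM with BHB and 270.9 ± 11.8 FPKM in controls (SD, n = 3 each). The neuronal gene Stmn2 stood at 54.1 ± 0.532 FPKM with BHB and 54.8 ± 0.980 FPKM in controls (SD, n = 3 each). These lists were not uniform. At least 10 FPKM on average was reached by 4 of 8 mural markers, 5 of 14 leptomeningeal and fibroblast markers and 2 of 12 neuron markers. In such bulk RNA, fewer cells of a type and less RNA per cell cannot be told apart.

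The members differed widely in abundance. Gabbr1 was far the most abundant, with a mean of 54.9 FPKM over the 6 libraries. The breakdown enzymes followed, Abat at 8.74 and Aldh5a1 at 5.88 FPKM. Gad1 came next at 1.35 FPKM, and Slc6a11, Gabbr2 and Gad2 lay under 1 FPKM in every library. Slc6a13 was listed at 0 in 5 of the 6 libraries. Among the 22608 genes ranked by mean FPKM, Gabbr1 was number 1279, Abat 6936, Aldh5a1 8340 and Gad1 11857. Each step in the order from Gabbr1 to Abat, Aldh5a1, Gad1 and Slc6a11 held in 6 of 6 libraries, with ranges that did not overlap. The levels of Slc6a11, Gabbr2 and Gad2 overlapped, and their order among themselves is within the spread between libraries.

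**Figure D1:**
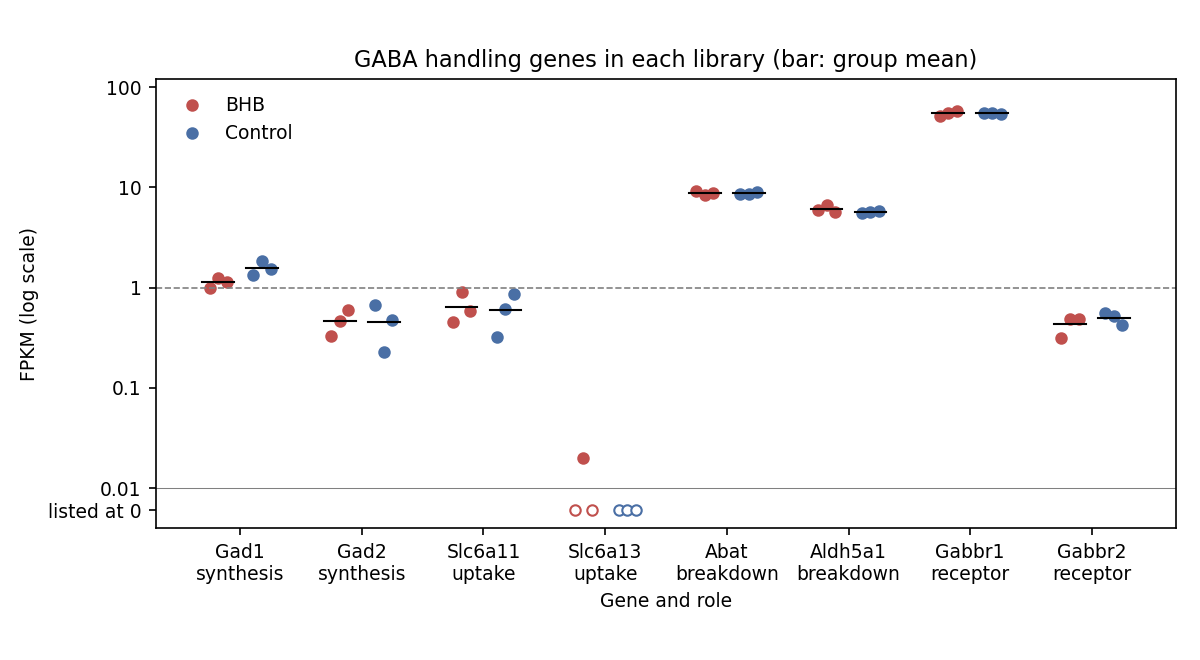
FPKM on a log scale of the 8 GABA handling genes in each of 3 BHB (red) and 3 control (blue) libraries, with bars at group means and open circles for values listed at 0. Gabbr1 sits near 55 FPKM in both groups, Gabbr2, Gad2 and Slc6a11 sit under the dashed line at 1 FPKM, and only Gad1 shows BHB and control points that do not overlap.

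With BHB no member passed the test across the 4 that were tested. Tests used limma on log2(FPKM + 1), and p-values were adjusted over the 12373 genes that reached 1 FPKM in 3 or more libraries. Of those genes 0.0566% passed at an adjusted p under 0.05, 0.0485% higher and 0.00808% lower with BHB. At an unadjusted p under 0.05, 1 of the 4 tested members (Gad1, lower) was found, where 5.59% of all genes tested were, 2.14% in the lower direction. Groups did not overlap in 1 of the 8 members, again Gad1, where they did not overlap in 10.9% of the genes tested, 4.45% with BHB lower and 6.43% with BHB higher. The 8 include members not tested, and 8.01% of all genes above 0 but not tested did not overlap. A single gene among so few members is a share from which little can be read. The median log2 fold change was 0.01 over the 4 tested members and 0.00 (0.00289) over all genes tested. Gad2, Slc6a11, Slc6a13 and Gabbr2 did not reach the minimum in either group, so they have values, an exact permutation test of the group means and an interval from a fit with no minimum, but no call.

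Of the synthesis genes, Gad1 had 0.994, 1.26 and 1.15 FPKM with BHB, against 1.34, 1.83 and 1.54 FPKM in controls. All 3 BHB libraries lay below all 3 controls, by a narrow margin between BHB 2 and control 1. The means were 1.13 ± 0.134 FPKM with BHB and 1.57 ± 0.249 FPKM in controls (SD, n = 3 each), a ratio of 0.723. On the log2(FPKM + 1) scale the difference was -0.26 (SE 0.101, 95% interval -0.50 to -0.03), with an unadjusted p of 0.0294 in limma and an adjusted p of 0.881, so it did not pass. An exact two-sided permutation test gave 0.1, the smallest p that 3 against 3 allows. That scale understates differences of genes near 1 FPKM, and with a pseudocount of 0.1 the difference was -0.43 (adjusted p = 0.886 in limma). RefSeq lists 4 transcripts of Gad1, and how their values were combined is not stated. The unadjusted p was above 0.05 without BHB 1 (0.0932), BHB 3 (0.0572), control 2 (0.106) or control 3 (0.0568), and the log2 difference of Gad1 stayed negative each time, between -0.33 and -0.19.

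Gad2 had 0.332, 0.459 and 0.5996 FPKM with BHB, against 0.671, 0.229 and 0.471 FPKM in controls. Controls 1 and 2 held its highest and lowest values, and the BHB libraries lay between them. The means were 0.464 ± 0.134 FPKM with BHB and 0.457 ± 0.221 FPKM in controls (SD, n = 3 each). Its log2 difference of 0.01 had an interval of -0.27 to 0.30 in the fit with no minimum, and the exact two-sided permutation p was 1. The log2 difference of Gad2 was negative without BHB 3 (-0.05) or control 2 (-0.10) and 0.12 without control 1. Together the synthesis pair summed to between 1.33 and 1.75 FPKM with BHB and to between 2.01 and 2.06 FPKM in controls. These sums did not overlap, but they hold Gad1, the larger part in every library, whose groups did not overlap either. They are therefore no separate result, and no share over all genes was computed for such sums. Gad2 entered them too, with its highest value in control 1, the control with the lowest Gad1.

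Because GAD genes are known from inhibitory neurons, markers of such cells were read beside Gad1. Slc32a1, the vesicular GABA transporter that loads synaptic vesicles, was listed at 0 in all 3 BHB libraries, against 0.105, 0.103 and 0.0666 FPKM in controls. The 12 markers of GABAergic neurons summed to between 91.6 and 97.1 FPKM with BHB and between 84.8 and 97.3 FPKM in controls, with Vip at 0 in every library and Lhx6 above 0 in BHB 2 alone. None of the 5 tested passed, and their log2 difference was above 0 in 3 and below 0 in 2, with a median of 0.11. Groups did not overlap in 3 of the 12, all below the minimum and all lower with BHB (Slc32a1, Dlx6 and Calb2, named after their values were seen). Values this low may rest on a few reads. Of all genes above 0 but not tested, 4.19% were lower with no overlap, as were 4.45% of the genes tested. The 12 mix tested and untested genes, so neither share matches them exactly. The most abundant was Pvalb, a calcium binding protein of fast-spiking interneurons that other cells also make, at 29.6 ± 2.86 FPKM with BHB and 27.2 ± 1.61 FPKM in controls (SD, n = 3 each). The 12 general neuron markers summed to between 94.5 and 97.2 FPKM with BHB and between 96.1 and 100.3 FPKM in controls, and none of the 7 tested passed. Of the 7, 1 had an unadjusted p under 0.05, where 5.59% of all genes tested did, and the log2 difference was above 0 in 2 and below 0 in 5. Groups did not overlap in 2 of the 12, in opposite directions, both named after their values were seen. They did not overlap in 10.9% of all genes tested and in 8.01% of all genes above 0 but not tested. The synaptic vesicle gene Syp had 4.27, 3.75 and 4.54 FPKM with BHB, against 5.41, 4.85 and 4.93 FPKM in controls (limma unadjusted p = 0.0230, adjusted p = 0.881). The neurofilament gene Nefm, below the minimum, had 0.458, 0.612 and 0.510 FPKM with BHB, against 0.332, 0.410 and 0.292 FPKM in controls. The part of neuronal RNA in the Gad1 difference was not tested.

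Of the uptake genes, Slc6a11 had 0.449, 0.904 and 0.588 FPKM with BHB, against 0.325, 0.606 and 0.855 FPKM in controls. Values within each group spread widely, and the groups overlapped almost fully. The means were 0.647 ± 0.233 FPKM with BHB and 0.595 ± 0.266 FPKM in controls (SD, n = 3 each), with a log2 difference of 0.05 (95% interval -0.30 to 0.40 in the fit with no minimum) and an exact two-sided permutation p of 0.8. The log2 difference of Slc6a11 was negative without BHB 2 (-0.06) or control 1 (-0.08) and 0.17 without control 3. Slc6a13 was listed at 0 in BHB 1, BHB 3 and all controls and at 0.0202 FPKM in BHB 2. The leptomeningeal and fibroblast markers, cells in which GAT2 is known, were far from uniform: Col1a2, Col1a1, Thbs2, Col3a1 and Ogn were above 10 FPKM in every library, while Dcn, Slc47a1 and Slc22a6 were listed at 0 in 3 or more libraries and Aldh1a2 was listed at 0 throughout.

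Other transporters of the family gave the frame for these levels. Slc6a12, the betaine and GABA transporter BGT1, lay between 0.0263 and 0.269 FPKM, below every value of Slc6a11 and above every value of Slc6a13. By contrast the relatives that carry creatine (Slc6a8) and taurine (Slc6a6) stood at 32.8 ± 1.73 and 4.84 ± 0.0584 FPKM with BHB and at 32.4 ± 1.78 and 4.68 ± 0.187 FPKM in controls (SD, n = 3 each). Neither passed (limma adjusted p = 0.977 and 0.942).

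Of the breakdown genes, Abat had 9.23, 8.41 and 8.74 FPKM with BHB, against 8.49, 8.55 and 9.03 FPKM in controls. BHB 1 was the highest and BHB 2 the lowest of all 6, and the controls lay between them. The means were 8.80 ± 0.414 FPKM with BHB and 8.69 ± 0.296 FPKM in controls (SD, n = 3 each), and the log2 difference of 0.01 lay in a 95% interval of -0.13 to 0.16 (limma adjusted p = 0.980). The sign of this small difference was not stable: it was negative when libraries were scaled to equal sums and without BHB 1 or control 1. By exact two-sided permutation p was 0.7.

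Aldh5a1, the next enzyme of the route, had 5.89, 6.72 and 5.72 FPKM with BHB, against 5.58, 5.62 and 5.76 FPKM in controls. BHB 2 stood highest, and BHB 3 lay within the range of the controls. The means were 6.11 ± 0.531 FPKM with BHB and 5.65 ± 0.0915 FPKM in controls (SD, n = 3 each). The log2 difference of 0.09 lay in a 95% interval of -0.07 to 0.26 (limma adjusted p = 0.898). It was 0.03 without BHB 2, and by exact two-sided permutation p was 0.2. On the later assembly GRCr8 the gene overlaps Gpld1, and since the strand setting of the counting is not given here, reads of the overlap cannot be assigned with certainty.

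Of the receptor genes, Gabbr1 had 51.8, 55.6 and 57.3 FPKM with BHB, against 55.1, 55.7 and 54.1 FPKM in controls. BHB libraries took both the lowest and the highest place, and the controls stayed within a narrow band. The means were 54.9 ± 2.80 FPKM with BHB and 55.0 ± 0.800 FPKM in controls (SD, n = 3 each). The log2 difference of -0.00 (-0.00305) had a 95% interval of -0.12 to 0.11 and an adjusted p of 0.996 in limma, and its sign turned with array weights and without BHB 1 or control 2. The exact two-sided permutation p was 0.9.

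Gabbr2 had 0.316, 0.492 and 0.482 FPKM with BHB, against 0.563, 0.523 and 0.420 FPKM in controls. BHB 1 was the lowest library, and the others overlapped. The means were 0.430 ± 0.0988 FPKM with BHB and 0.502 ± 0.0738 FPKM in controls (SD, n = 3 each). The log2 difference was -0.07 (95% interval -0.23 to 0.08 in the fit with no minimum), with an exact two-sided permutation p of 0.4. The log2 difference of Gabbr2 was -0.20 with a pseudocount of 0.1 and -0.01 without BHB 1. On GRCr8 Gabbr2 overlaps a pair of unnamed loci, so its reads carry the same doubt about strand as those of Aldh5a1.

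**Figure D2:**
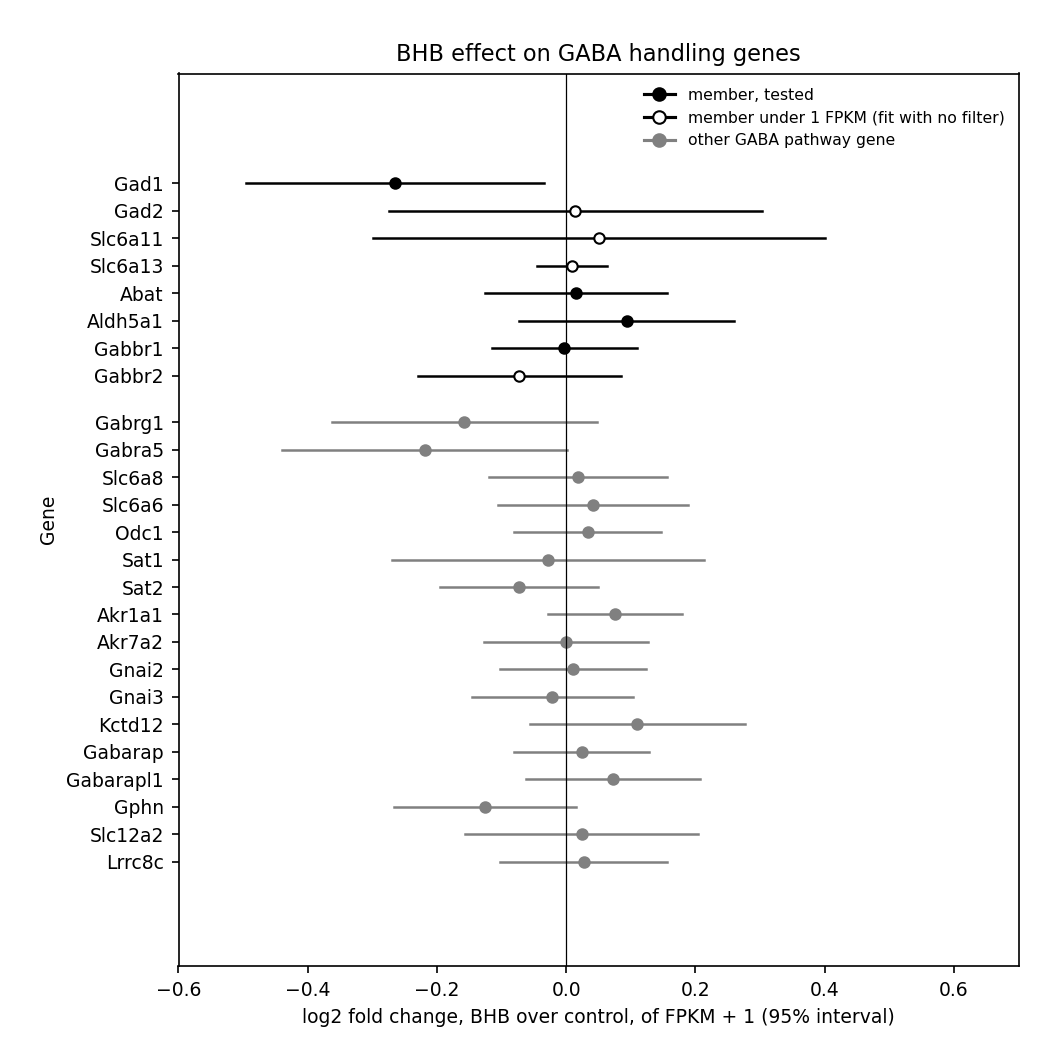
Log2 fold change of FPKM + 1, BHB over control, with 95% limma intervals, for the 8 members (black) and 17 other GABA pathway genes (grey). Open circles mark members under 1 FPKM, whose intervals come from the fit with no minimum, and the interval of Gad1, at -0.50 to -0.03, is the only one that does not reach 0, before adjustment over all genes. The interval of Slc6a13 is short because 5 of its 6 values are listed at 0.

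Ratios within a library do not depend on its scaling, and 3 of the 4 pairs of genes with a shared role could be compared in this way. Gabbr1 exceeded Gabbr2 by 164.0, 113.1 and 118.8 times with BHB, against 97.8, 106.5 and 128.8 times in controls. The mean over all libraries was 121.5, and the FPKM of the 2 subunit genes lay far apart in both groups. RefSeq lists 5 transcripts of Gabbr1, 3 of Abat and 4 of Gad1, but 1 each of Gabbr2, Aldh5a1 and Gad2. How values of several transcripts were combined is not stated, and its part in the size of the ratios in these 3 pairs was not tested. The log2 ratio of Gabbr2 over Gabbr1 differed by -0.24 between BHB and controls (exact two-sided permutation p = 0.4), by -0.07 without BHB 1 and by -0.07 as a ratio of FPKM + 1. Abat exceeded Aldh5a1 by 1.57, 1.25 and 1.53 times with BHB, against 1.52, 1.52 and 1.57 times in controls. The controls lay close together here, and BHB 2 alone stood lower. The log2 ratio of Aldh5a1 over Abat differed by 0.09 (exact two-sided permutation p = 0.8), and by -0.01 without BHB 2. Gad1 exceeded Gad2 by 2.99, 2.74 and 1.91 times with BHB, against 1.99, 8.02 and 3.26 times in controls. The log2 ratio of Gad2 over Gad1 differed by 0.58 (exact two-sided permutation p = 0.4). It was 0.03 without control 2 and 1.03 without control 1 (exact two-sided permutation p = 0.9 and 0.1), the controls with the highest and the lowest ratio of Gad1 to Gad2. The transporter pair was not compared, because Slc6a13 was listed at 0.

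**Figure D3:**
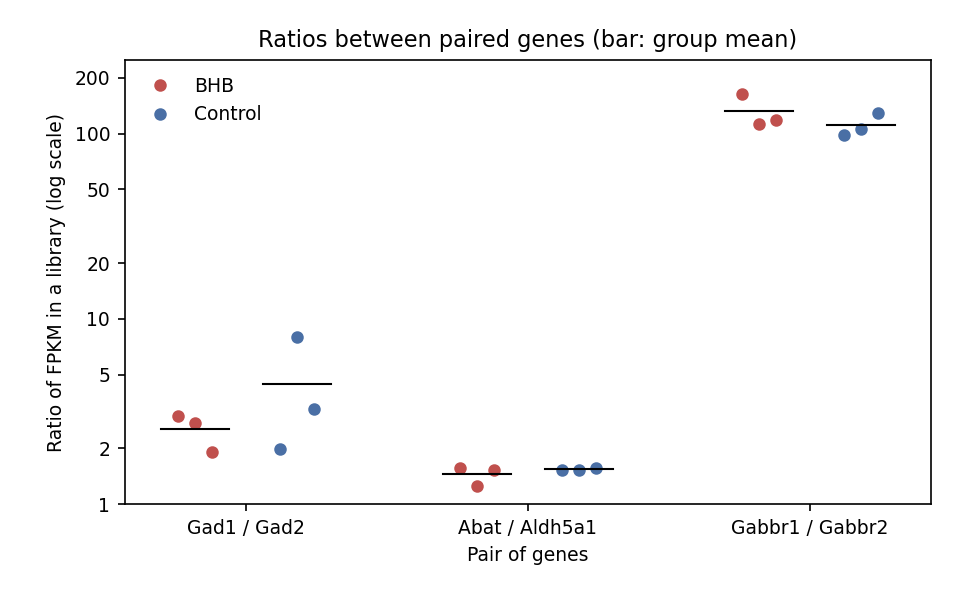
Ratio of FPKM between paired genes in each of 3 BHB (red) and 3 control (blue) libraries, on a log scale with bars at group means. Gabbr1 is 97.8 to 164.0 times Gabbr2, Abat 1.25 to 1.57 times Aldh5a1 and Gad1 1.91 to 8.02 times Gad2, and the groups overlap in each pair.

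Beyond the members, 71 further genes of GABA signalling and metabolism were listed in 7 groups, of which 70 were found and 42 tested. None passed, and none had an unadjusted p under 0.05 in limma, where 5.59% of all genes tested did. That count was not stable: it was 2 of 42 without BHB 1 (6.89% of all genes tested), without control 1 (4.4%) or with libraries scaled to equal sums (5.46%), and 6 of 67 with no minimum (5.39%). The log2 fold change was above 0 in 24 and below 0 in 18, with a median of 0.01 and a range of -0.22 to 0.18, while 95% of all genes tested lay between -0.20 and 0.23. Groups did not overlap in 2 of the 42, where 10.9% of all genes tested did not.

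**Figure D4:**
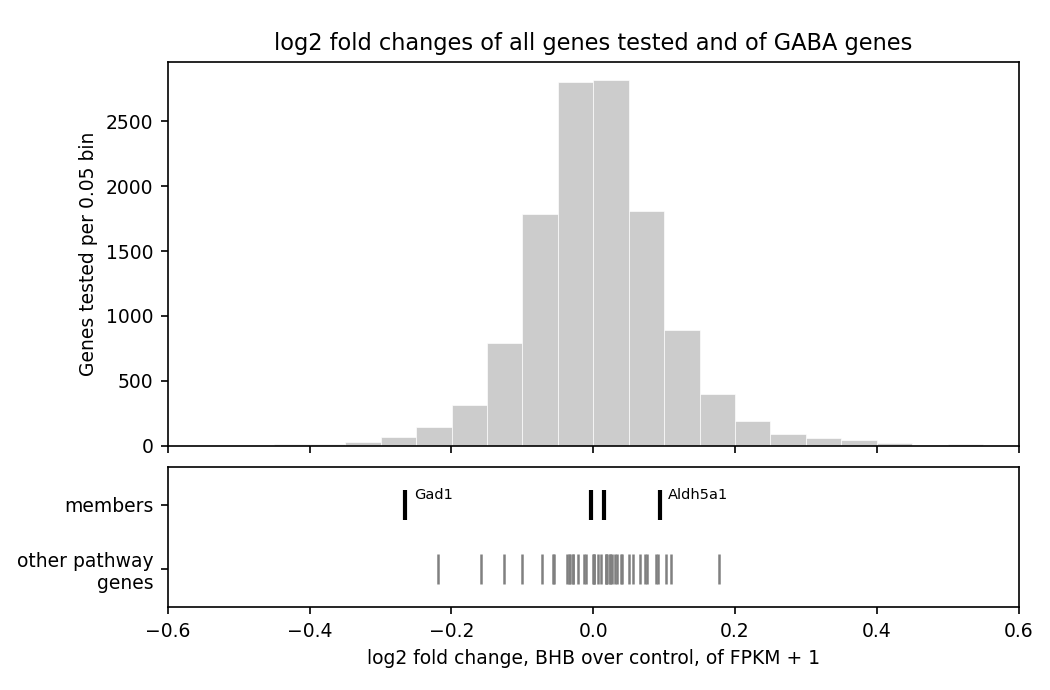
Upper panel, number of genes tested in each bin of log2 fold change of FPKM + 1, BHB over control, with 46 of 12373 genes beyond the plotted range. Lower panel, the 4 tested members (black) and 40 of the other GABA pathway genes tested (grey), which lie within the central 95% of all genes tested except Gad1 at -0.26 and Gabra5 at -0.22.

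GABA-A receptor subunits, which form the chloride channel opened by GABA, were tested in 5 of 19 cases, with 1 above and 4 below 0. The astroglial γ subunit gene Gabrg1, the most abundant, stood at 5.41 ± 0.434 FPKM with BHB and 6.17 ± 0.697 FPKM in controls (SD, n = 3 each), and its log2 difference was -0.16 (limma adjusted p = 0.890, not passing). Gabra5, an α subunit of extrasynaptic receptors in neurons, had 1.02, 0.792 and 0.770 FPKM with BHB, against 1.01, 1.29 and 1.19 FPKM in controls. BHB 1 overlapped control 1, and the difference of -0.22 did not pass (limma unadjusted p = 0.0517, adjusted p = 0.881). Gabra6 and Gabrd, subunits best known from cerebellar granule cells, were listed at 0 in every library.

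An alternative route to GABA in astrocytes starts from putrescine, the product of ornithine decarboxylase (Odc1), and passes through monoamine oxidase B and aldehyde dehydrogenases. Of the 8 genes listed 7 were tested, and 6 of these averaged at least 10 FPKM. The log2 difference was above 0 in 2 and below 0 in 5. The monoamine oxidase B gene Maob, named after its values were seen, was less abundant. It stood at 4.79 ± 1.38 FPKM with BHB and 4.83 ± 0.458 FPKM in controls (SD, n = 3 each). Aoc1 was listed at 0 in every library. Odc1 stood at 74.1 ± 3.91 FPKM with BHB and 72.4 ± 1.54 FPKM in controls, and the spermidine and spermine acetyltransferase gene Sat1 at 33.2 ± 2.66 FPKM with BHB and 34.1 ± 5.0 FPKM in controls (SD, n = 3 each). Sat2, its relative, had the smallest p of the group, with a log2 difference of -0.07 (limma adjusted p = 0.898). Aldh9a1, which oxidises γ-aminobutyraldehyde to GABA and was named after its values were seen, was in 1 of the 2 sets of values that did not overlap, at 24.9, 25.3 and 24.8 FPKM with BHB, against 26.3, 25.9 and 26.0 FPKM in controls (log2 difference -0.06, limma adjusted p = 0.898). The other was Nlgn2, the adhesion protein of inhibitory synapses, at 34.1, 36.2 and 36.7 FPKM with BHB, against 34.0, 33.8 and 32.6 FPKM in controls (0.09, limma adjusted p = 0.890).

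Succinic semialdehyde can also be reduced to γ-hydroxybutyrate by aldo-keto reductases. The 4 genes listed for succinic semialdehyde and γ-hydroxybutyrate included Adhfe1, which is not an aldo-keto reductase and was named after its values were seen. Of the 4, 3 were tested, Adhfe1 among them. Akr1a1 stood at 313.1 ± 11.2 FPKM with BHB and 297.1 ± 10.8 FPKM in controls, and Akr7a2 at 18.3 ± 0.908 FPKM with BHB and 18.3 ± 0.467 FPKM in controls (SD, n = 3 each). Neither passed (limma adjusted p = 0.890 and 0.999). Both exceeded Aldh5a1, the oxidising enzyme, in every library.

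Partners of the GABA-B receptor were tested in 10 of the 16 cases, with 6 above and 4 below 0 (Kctd12b was not matched). The inhibitory G protein gene Gnai2 stood at 460.8 ± 18.5 FPKM with BHB and 457.6 ± 20.6 FPKM in controls, and Gnai3 at 78.0 ± 4.32 FPKM with BHB and 79.1 ± 3.54 FPKM in controls (SD, n = 3 each). Kctd12, an auxiliary subunit that speeds receptor desensitisation, had 7.08, 6.33 and 6.17 FPKM with BHB, against 5.79, 5.81 and 6.30 FPKM in controls, and its log2 difference of 0.11 did not pass (limma adjusted p = 0.895). Its relatives Kctd8 and Kctd16 stayed under 1 FPKM, so Kctd12 was the only auxiliary subunit gene of those found that was tested.

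Of 11 trafficking and anchoring genes 9 were tested, 8 above and 1 below 0. Gabarap and Gabarapl1, small ubiquitin-like proteins of receptor transport and autophagy, stood at 264.5 ± 3.10 and 62.8 ± 1.26 FPKM with BHB and at 260.3 ± 13.05 and 59.8 ± 4.49 FPKM in controls (SD, n = 3 each). The scaffold gene Gphn (gephyrin), the member below 0, had 11.5, 12.1 and 11.7 FPKM with BHB, against 12.1, 13.7 and 12.99 FPKM in controls (log2 difference -0.13, limma adjusted p = 0.881). Of 8 release channel and chloride carrier genes 5 were tested, 4 above and 1 below 0. Slc12a2, which loads cells with chloride, stood at 27.0 ± 1.05 FPKM with BHB and 26.6 ± 3.01 FPKM in controls, and the volume-regulated channel subunit Lrrc8c at 11.98 ± 0.361 FPKM with BHB and 11.7 ± 0.434 FPKM in controls (SD, n = 3 each).

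Of the 28 pathway genes found below the minimum, 3 were listed at 0 throughout and 5 had groups that did not overlap, 3 higher and 2 lower with BHB, where 8.01% of all genes above 0 but not tested did not overlap, 3.81% with BHB higher and 4.19% with BHB lower. All 5 were named after their values were seen, and values this low may rest on a few reads. Best1, a chloride channel through which astrocytes have been reported to release GABA, had 0.130, 0.142 and 0.136 FPKM with BHB, against 0.0322, 0.0262 and 0.0164 FPKM in controls. Kcnj3, a potassium channel subunit opened by GABA-B receptors, had 0.0988, 0.110 and 0.148 FPKM with BHB, against 0.0477, 0.0169 and 0.0324 FPKM in controls. Gabre, a GABA-A ε subunit, had 0.477, 0.486 and 0.487 FPKM with BHB, against 0.367, 0.320 and 0.219 FPKM in controls. The lower genes were Slc32a1, given above, and Gabrg3, at 0.0345, 0.159 and 0.155 FPKM with BHB, against 0.280, 0.183 and 0.276 FPKM in controls. The exact two-sided permutation p of each is 0.1, the smallest possible, as for any gene whose groups do not overlap.

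Across the 6 libraries the values most like those of Gabbr1 were those of Bckdk, the kinase that restrains branched-chain amino acid oxidation, with a Pearson r of 0.993 on log2(FPKM + 1), followed by Gtdc1 (0.986), a glycosyltransferase-like gene, and LOC102551683 (0.983). These are descriptions over 6 points that share their libraries, and 129 of the 12372 other genes tested had an r above 0.9. In Bckdk, as in Gabbr1, BHB 1 was the lowest library, at 36.0 FPKM, and BHB 3 the highest, at 45.3 FPKM, with controls between 40.7 and 42.9 FPKM.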

How the data were processed

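RNA was measured in 3 BHB and 3 control libraries of rat primary astrocytes, grouped by their titles. The deposited data are 1 table of FPKM, normalised by the authors. Per the submitters' processing notes bcl2fastq 2.0, HISAT2, StringTie and DESeq2 were used with the build rn6, without roles or settings given. The sources used here give no annotation, strand setting or handling of shared reads. FPKM carries no read counts, so depth is unknown and no count model was used.

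Values were transformed as log2(FPKM + 1). Genes that reached 1 FPKM in 3 or more libraries (12373 of 22608) were fitted with limma 3.58.1 in R 4.3.3 (treatment only, eBayes with trend), two-sided, with Benjamini-Hochberg adjustment over those genes and a threshold of 0.05. The 8 members, 3 within-library ratios and each listed gene had an exact permutation test over the 20 splits of 3 against 3, with no adjustment. On simulated data of the 12373 genes for BHB against control, the fit recovered 19.0% of changes of 0.25 and 83.6% of changes of 0.5 on the log2 scale. There 200 genes were changed, by 0.25 to 1.5, whereas 7 genes were called in the data. With fewer genes called the adjusted cutoff is stricter, so recovery in the data may be lower. The shares are also averages over all genes, while the SE of Gad1 was 0.101 and that of Gabbr1 0.0489.

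Members and gene lists were chosen with earlier results of these data known. Named were all members, the 2 most abundant tested genes and the gene of smallest p in each pathway list, any of these lists that passed, the most abundant gene of each marker list, and the 3 genes most correlated with the most abundant member. Slc1a3 and genes said to be so were named after their values were seen. The same holds for every other listed gene named outside this rule, such as Col1a1, Vip, Gabra6, Slc6a12, Kctd8 and Nlgn2. Some genes that this rule selects are left out of the text but stay in the counts. The remaining marker lists led with Cnp (oligodendrocyte lineage), C1qb (microglia), Eng (endothelial) and Foxj1 (ependymal), whose group means were 50.5, 10.3, 2.44 and 31.1 FPKM with BHB and 47.0, 11.0, 2.25 and 33.8 FPKM in controls. Names and overlaps came from a RefSeq table of GRCr8, which matched all 8 members. Alternatives were another pseudocount, other minimums, scaling to equal sums, quantile normalization, no trend, array weights, a replicate block, the genes with at most 6 decimals, and leaving out each library.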

Additional observations from a re-analysis of the deposited data

How the results depend on the processing

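No member and no other GABA pathway gene passed in any of 15 alternatives, and the lowest adjusted p of a tested member was 0.685, for Gad1 without BHB 1. Gad1 stayed lower in its 14 alternatives, from -0.43 to -0.19 on the log2 scale, with unadjusted p from 0.0158 to 0.106. Over all genes 7 were called in the main setting, 4 without the eBayes trend, 2 with the replicate block, 2 among genes with at most 6 decimals and 3 at an adjusted p under 0.01. The last count follows from a stricter threshold. Among genes with at most 6 decimals 5267 were tested, against 12373 in the main setting. For this count and the others the cause was not tested. The count was 5 to 10 with any single library removed.

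Differences near 0 turned sign. Scaling to equal sums gave Abat -4.07e-04 and Gnai2 -0.00661, quantile normalization gave Gnai2 -0.00454, and array weights gave Gabbr1 0.00941. Leaving out a library gave ranges of -0.0171 to 0.0434 for Abat, -0.0335 to 0.0374 for Gabbr1, -0.103 to 0.119 for Gad2, -0.0770 to 0.166 for Slc6a11, -0.0265 to 0.0617 for Slc6a8, -0.00124 to 0.0736 for Odc1, -0.145 to 0.0615 for Sat1, -0.0261 to 0.0386 for Akr7a2, -0.0275 to 0.0437 for Gnai2, -0.0661 to 0.0150 for Gnai3, -0.0158 to 0.0554 for Gabarap and -0.0418 to 0.109 for Slc12a2. The log2 ratio of Aldh5a1 over Abat ran from -0.00920 to 0.152, that of Gad2 over Gad1 from 0.0266 to 1.03, that of Gabbr2 over Gabbr1 from -0.351 to -0.0720 and the median of the other pathway genes from -0.00404 to 0.0322. A pseudocount of 0.1 gave -0.195 for Gabbr2 and 0.0884 for Slc6a13, as it weighs values near 0 more. In all, 226 of 245 values of the 17 named pathway genes kept their direction and their side of the threshold.

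The labels do not say whether same-numbered libraries belong together, and the main fit did not treat them as pairs. Correlations of their deviations were -0.0899, 0.164 and -0.151. Those of libraries with different numbers ran from -0.122 to 0.203, so these correlations cannot decide whether there was pairing. With the replicate block Gad1 had an adjusted p of 0.936, while the ratio differences of 0.58, 0.09 and -0.24 cannot change under it, and their exact permutation p became 0.5, 0.75 and 0.75. Members under 1 FPKM may rest on few reads, and differences smaller than their intervals were not detectable.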
